A study of Homo sapiens with 8 samples.

Results

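Fatty acid synthesis and desaturation were followed through 10 genes, FASN, SCD, FADS1, FADS2, ACACA, ACLY, ELOVL6, ELOVL5, SREBF1 and ACSL3, chosen by symbol out of 63241 Ensembl gene identifiers with an expression value. All 10 matched a single identifier, and all 10 passed the filter on low values, 1 FPKM or more in 2 or more libraries, which 15173 genes passed. FPKM divides the fragments of a gene by its transcript length and by the library total, so levels of different genes can be set side by side. HepG2 and Huh7, both established lines of human liver cancer, are labelled as hepatocellular carcinoma cells. HepG2 WT and Huh7 WT are the parental sensitive cells, labelled as controls, and HepG2 SR and Huh7 SR are sorafenib-resistant cells derived from them by growth in a rising concentration gradient of sorafenib, a multikinase inhibitor, with sorafenib as their labelled treatment. Polyadenylated RNA was sequenced in 2 libraries of each of these 4 groups, 8 in all, under a single batch label. The sources do not say whether the libraries of a group came from separate cultures, or whether SR cells were a clone, so p-values measure only the spread between these libraries.

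Cells build fatty acids from cytosolic acetyl-CoA. ATP citrate lyase releases that acetyl-CoA from citrate, acetyl-CoA carboxylase makes malonyl-CoA from it, and fatty acid synthase assembles the saturated chain. Elongases then lengthen the chain, desaturases place double bonds in it, and acyl-CoA synthetases activate the free acid for use in lipids. In liver cells this program is switched on by insulin through SREBP-1, the product of SREBF1. The products matter to ferroptosis, since monounsaturated chains resist peroxidation and polyunsaturated chains are its substrate.

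Similarity among libraries cut across the labelled cell lines. HepG2 WT replicates 1 and 2, replicate 1 of HepG2 SR, and replicate 2 of both Huh7 groups, 5 libraries, had a Pearson's r of log2(FPKM + 1) between 0.914 and 0.977 with one another across genes, which are not independent replicates. Replicate 1 of Huh7 WT and of Huh7 SR correlated at 0.965 with each other but at 0.783 or less with those 5, and HepG2 SR replicate 2 had an r of at most 0.846 with any library. KRT19, a keratin of bile duct cells, ranged from 155 to 760 FPKM in those 5 and between 0.179 and 2.37 FPKM in the other 3, and MAGEA4, a cancer-testis antigen, was listed at 0 except in the Huh7 libraries of replicate 1. The summed level of 15 hepatocyte genes lay between 7792 and 11399 FPKM in the HepG2 libraries and Huh7 SR replicate 2, and between 2394 and 2828 FPKM in the other 3 Huh7 libraries. FGA, FGB and FGG of this list did not follow the sum. In the 3 libraries low in KRT19, FGA ranged from 594 to 1153 FPKM, FGB from 128 to 380 FPKM and FGG from 730 to 1047 FPKM. In the 5 libraries of like profile they were at most 56.5, 4.5 and 126 FPKM. Markers of fibroblasts, leukocytes and endothelium summed to between 8.3 and 30.6 FPKM over 12 genes, and DCN, LUM, PTPRC, CD3E, VWF and CDH5 were under 1 FPKM in every library. The other markers were not. CD68 stood between 3.94 and 29.1 FPKM, and CD14, PECAM1, COL1A1 and COL3A1 reached 6.27, 4.28, 1.7 and 1.5 FPKM. COL1A2 was at 8.28 FPKM in HepG2 SR replicate 2 and at most 0.519 FPKM elsewhere. Groups are used as labelled, and medians and some calls are also given without libraries that stood apart where these changed them.

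Promoter windows from RefSeq (GRCh38.p14) were found for 9 of the 10 genes, FASN being the exception. Stretches are shown from the start of a window up to the first annotated exon base within it. ACLY, SCD and FADS2 are shown as 3 of the 5 genes higher in SR in every pair of like profile described below. FADS1 is shown because it starts 599 bases from the nearer annotated start of FADS2 on the opposite strand. By the annotated gene bounds, the ACLY, FADS1 and FADS2 stretches lie inside their genes, and only the SCD stretch lies upstream of its gene. Capitals mark CCAAT, the letters bound by NF-Y, a partner of SREBP, on either strand, where the reverse reads ATTGG. The ACLY stretch covers chr17:41919023-41919201 on the minus strand, SCD chr10:100346983-100347123 on the plus strand, FADS1 chr11:61817198-61817253 on the minus strand and FADS2 chr11:61816154-61816255 on the plus strand, each printed 5′ to 3′.
ACLY: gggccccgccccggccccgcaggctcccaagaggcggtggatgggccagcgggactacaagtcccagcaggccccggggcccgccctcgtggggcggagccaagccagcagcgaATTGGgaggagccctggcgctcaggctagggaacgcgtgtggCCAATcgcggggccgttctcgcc
SCD: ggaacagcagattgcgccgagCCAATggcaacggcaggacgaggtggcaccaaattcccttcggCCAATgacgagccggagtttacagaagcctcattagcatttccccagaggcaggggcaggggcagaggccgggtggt
FADS1: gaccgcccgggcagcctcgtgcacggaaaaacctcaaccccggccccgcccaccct
FADS2: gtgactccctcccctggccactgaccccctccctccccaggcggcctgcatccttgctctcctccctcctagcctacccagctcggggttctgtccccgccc

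In the 250 bases before the start, 5 of the 9 genes (ACLY, ACACA, ELOVL5, SCD and ACSL3) held CCAAT in at least 1 window, or 7 of the 13 windows of the 9 genes, against 32.0% of all 35116 windows. The windows of ACLY overlap and hold the same CCAAT pair, which is thus counted in both. Those of FADS2 overlap too, so the window counts are not independent. The ACLY and SCD stretches each held CCAAT in a pair, and the FADS1 and FADS2 stretches held none. A window of ACACA and that of ELOVL5 also held a pair, and these genes were not higher in SR in every pair of like profile. The windows of ELOVL6 and SREBF1, which were, held no CCAAT. The sterol-element letters TCACNCCAC were in 0 of the 13 windows and in 0.883% of all windows. CACGTG was in 1 window, that of ELOVL5, and in 6.34% of all windows, and GGGCGG, read by SP1, was in 10 of 13 and in 42.6%. Matches were counted on both strands, none of these motifs is part of another, and a match is a description of the letters, not a binding site.

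Levels differed more between the genes than between the groups. SCD had the highest mean over the 8 libraries, 259.1 FPKM, followed by FASN at 83.2, ACLY at 63.7, ELOVL5 at 55.0, ACSL3 at 46.1, FADS1 at 38.1, SREBF1 at 22.2, FADS2 at 20.7, ELOVL6 at 6.6 and ACACA at 5.4 FPKM. SCD was the most variable with FADS2, spanning 8.23-fold and 8.71-fold from the lowest to the highest library, while ACLY, ACACA, SREBF1, FASN and ELOVL5 spanned between 2.10-fold and 2.65-fold. Among all tested genes SCD lay between the percentiles 94.8 and 99.5 of a library, and ACACA between 35.0 and 51.6. All neighbours in this order, from SCD to ACACA, overlapped in their ranges over libraries.

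**Figure D1:**
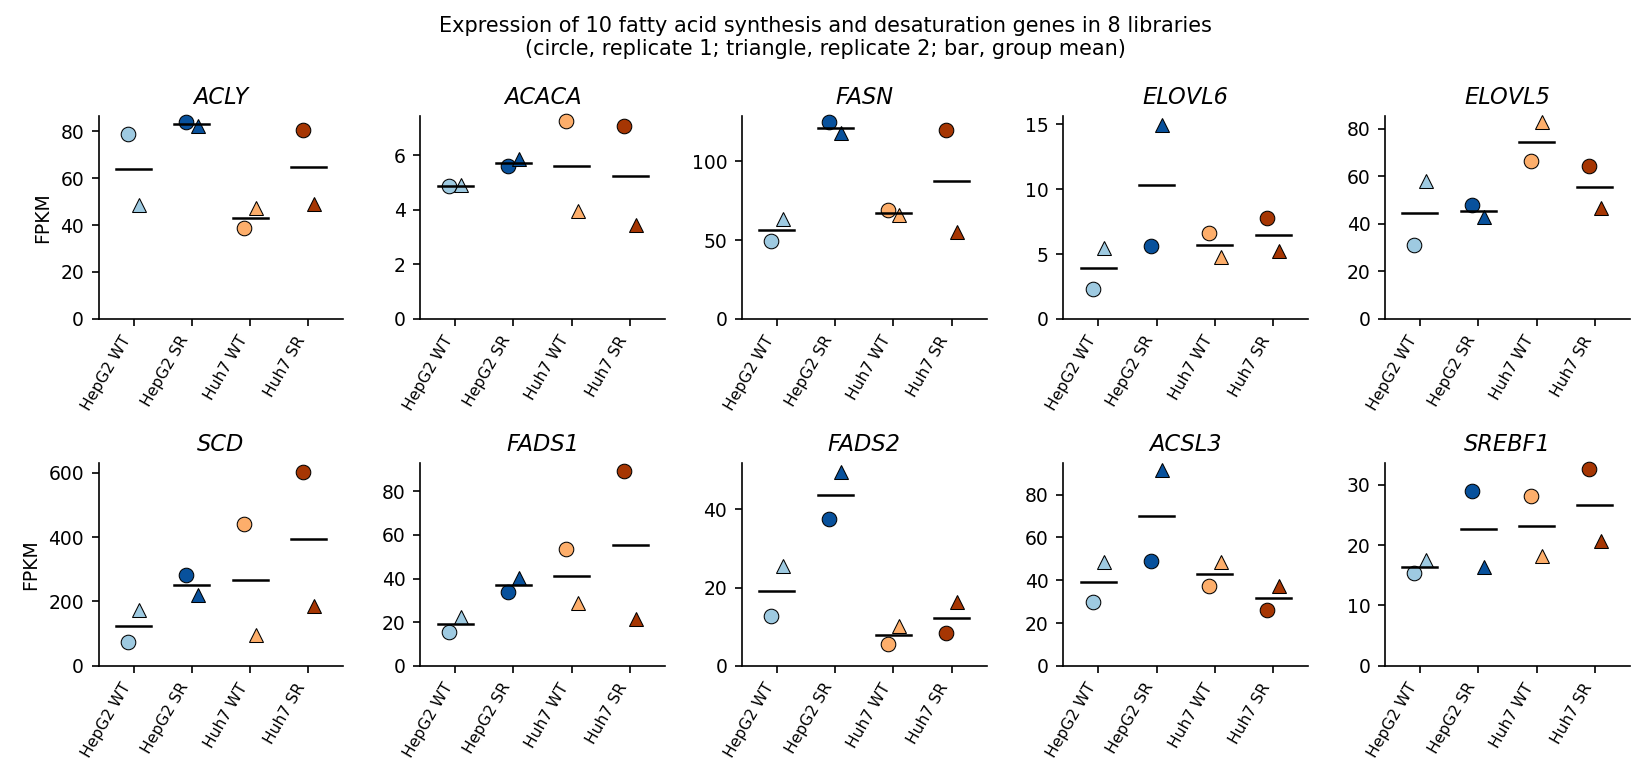
FPKM of the 10 genes (vertical axis, linear, starting at 0) in the 4 groups, with each point a library (circle replicate 1, triangle replicate 2) and each bar the mean of 2 libraries. FASN in HepG2 SR lies at 118 and 125 FPKM, above both HepG2 WT libraries at 49.5 and 63.4 FPKM, whereas SCD and FADS1 in Huh7 are set apart by replicate rather than by group.

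SR cells were compared with their parental cells to ask how gene expression differs in acquired resistance. In HepG2, all 10 genes had a positive log2 fold change of SR against WT, with a median of 0.87 where the median over all 15173 genes was -0.03. For 8 of the 10, both SR libraries lay above both WT libraries, against 18.1% of all genes, and for 0 of 10 both lay below, against 20.1%. With 1 HepG2 library left out, the median ran from 0.60 to 1.16 and 9 or 10 genes were positive. In Huh7, 7 of 10 were positive, with a median of 0.18 against -0.05 over all genes. That direction rested on single libraries: 2 of 10 were positive without Huh7 SR replicate 1, with a median of -0.16, and 3 of 10 without Huh7 WT replicate 2, with a median of -0.18, while 8 of 10 were without Huh7 SR replicate 2, with a median of 0.46, and 8 of 10 without Huh7 WT replicate 1, with a median of 0.33. Only ACLY had both Huh7 SR libraries above both WT libraries (9.06% of all genes), while ELOVL5 and ACSL3 had both below (12.9% of all genes).

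Tests were made with limma on log2(FPKM + 1) in a single model of the 4 group means. A gene was called at the study's thresholds, which are a p below 0.05 before adjustment and a log2 fold change of 0.5 or more, or below -0.5. In HepG2, FASN and FADS2 were called higher (0.877% of all genes were) and 0 of 10 lower (1.27%). In Huh7, 0 of 10 were called higher (0.942%) or lower (0.923%). Averaged over both cell lines, FADS2 was called higher (1.9%) and 0 of 10 lower (2.03%). After Benjamini-Hochberg adjustment over all genes, 0 genes of 15173 were under 0.05 in either cell line with limma, where 325 genes of HepG2 and 283 of Huh7 were under it before adjustment. The smallest adjusted p of the 10 genes was 0.956 in HepG2 and 1.0 in Huh7. FASN and FADS2 in HepG2 and FADS2 over both cell lines lost their calls when libraries were rescaled to a common sum.

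**Figure D2:**
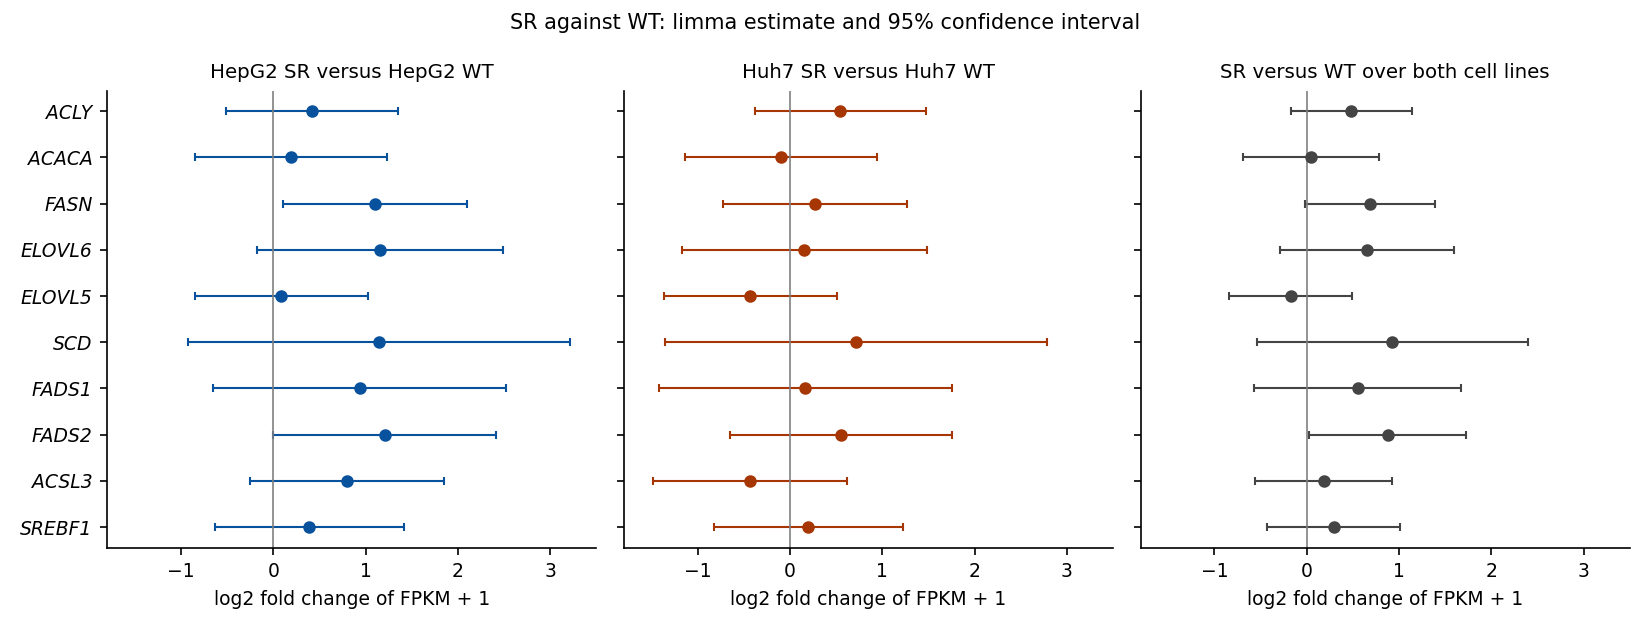
Log2 fold change of FPKM + 1 (horizontal axis) of each gene in SR against WT, with the 95% confidence interval from limma, in HepG2, in Huh7 and averaged over both cell lines. All 10 estimates are above 0 in HepG2, where the intervals of FASN and FADS2 exclude 0, and all 10 intervals include 0 in Huh7.

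Among the enzymes that make the chain, FASN (ENSG00000169710, chromosome 17 from 82078333 to 82098332, minus strand, GRCh38) encodes fatty acid synthase. It measured 49.5 and 63.4 FPKM in HepG2 WT against 125 and 118 FPKM in HepG2 SR, and at 69.2 and 65.7 FPKM in Huh7 WT and at 120 and 55.1 FPKM in Huh7 SR. Of the 4 SR libraries, 3 lay above every WT library, and Huh7 SR replicate 2 lay below all WT libraries but HepG2 WT replicate 1. FASN was 2.15-fold higher in HepG2 SR on the log2(FPKM + 1) scale, a log2 fold change of 1.10 (standard error 0.42, 95% confidence interval 0.11 to 2.10, adjusted p = 0.956 from limma). In Huh7 the log2 fold change was 0.27 (95% confidence interval -0.73 to 1.26). The HepG2 change stayed between 0.93 and 1.28 with any library left out, but the call was lost without HepG2 WT replicate 1, HepG2 WT replicate 2, HepG2 SR replicate 1 or HepG2 SR replicate 2.

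ACLY (ENSG00000131473, chromosome 17 from 41866908 to 41930542, minus strand) encodes ATP citrate lyase. It measured 78.9 and 48.6 FPKM in HepG2 WT, 84.2 and 82.1 FPKM in HepG2 SR, 38.7 and 47.4 FPKM in Huh7 WT and 80.7 and 49.2 FPKM in Huh7 SR. It was the gene of the 10 whose SR libraries lay above the WT libraries in both cell lines, though HepG2 WT replicate 1 was close to HepG2 SR. Its log2 fold change was 0.42 (standard error 0.39) in HepG2 and 0.55 (standard error 0.39) in Huh7, and neither was called. Taking the cell lines together, 3 of 4 SR libraries lay above every WT library. A two-sided exact permutation test of 4 SR against 4 WT libraries, which exchanges labels without regard to cell line or profile, gave p = 0.0571 for ACLY, the smallest of the 10 genes, and from p = 0.114 (FASN) to p = 0.829 (ACACA) for the other 9, where 0.0286 is the smallest it allows.

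ACACA (ENSG00000278540, chromosome 17 from 37084988 to 37406818, minus strand) encodes acetyl-CoA carboxylase of the cytosol, the committed step. It measured 4.85 and 4.90 FPKM in HepG2 WT against 5.58 and 5.85 FPKM in HepG2 SR, with a log2 fold change of 0.19 (95% confidence interval -0.85 to 1.23). In Huh7 it differed by replicate rather than by group, at 7.23 and 3.97 FPKM in WT and 7.05 and 3.45 FPKM in SR. ACACA was listed at between 0.045 and 0.104 of the FASN level in each library, and this ratio was lower in both HepG2 SR libraries, at 0.045 and 0.050, than in HepG2 WT, at 0.098 and 0.077.

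The elongases differed from each other. ELOVL6 (ENSG00000170522, chromosome 4 from 110045846 to 110199199, minus strand), which lengthens saturated and monounsaturated chains, measured 2.31 and 5.47 FPKM in HepG2 WT against 5.62 and 14.997 FPKM in HepG2 SR. The groups did not overlap, but HepG2 SR replicate 1 exceeded HepG2 WT replicate 2 by 0.03 on the log2 scale. The log2 fold change of 1.15 (standard error 0.56) was not called, became 0.52 without HepG2 SR replicate 2, and was 1.79 and called without HepG2 SR replicate 1. In Huh7, ELOVL6 stood at 6.61 and 4.77 FPKM in WT and at 7.77 and 5.22 FPKM in SR. ELOVL5 (ENSG00000012660, chromosome 6 from 53267398 to 53349179, minus strand), which lengthens polyunsaturated chains, measured 31.2 and 58.0 FPKM in HepG2 WT, 47.8 and 42.8 FPKM in HepG2 SR, 66.4 and 82.7 FPKM in Huh7 WT and 64.1 and 46.6 FPKM in Huh7 SR. Its groups overlapped in HepG2 and not in Huh7, where SR was lower by 0.43 on the log2 scale (95% confidence interval -1.37 to 0.51). HepG2 SR replicate 2 had the lowest ratio of ELOVL5 to ELOVL6, 2.85, where the other 7 libraries lay between 8.26 and 17.3.

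SCD (ENSG00000099194, chromosome 10 from 100347124 to 100364834, plus strand) encodes the desaturase that makes oleic and palmitoleic acid. It measured 73.2 and 173 FPKM in HepG2 WT against 283 and 221 FPKM in HepG2 SR, without overlap. In Huh7 it stood at 441 and 94.4 FPKM in WT and at 602 and 187 FPKM in SR, so that both libraries of replicate 1 were above both of replicate 2. Its log2 fold change was 1.14 (standard error 0.87) in HepG2 and 0.71 (standard error 0.87) in Huh7, within the spread between libraries. The standard error of SCD was the largest of the 10 genes.

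FADS1 and FADS2 lie on opposite strands of chromosome 11 with their nearest RefSeq starts 599 bases apart, but their levels parted. FADS1 (ENSG00000149485, 61799625 to 61829318, minus strand) and FADS2 (ENSG00000134824, 61792980 to 61867354, plus strand) encode the delta-5 and delta-6 desaturases of polyunsaturated fatty acids, and FADS2 acts first. FADS1 measured 15.6 and 22.4 FPKM in HepG2 WT, 33.6 and 40.1 FPKM in HepG2 SR, 53.4 and 28.8 FPKM in Huh7 WT and 89.1 and 21.7 FPKM in Huh7 SR. FADS2 measured 12.8 and 25.5 FPKM in HepG2 WT, 37.5 and 49.5 FPKM in HepG2 SR, 5.68 and 10.2 FPKM in Huh7 WT and 8.39 and 16.2 FPKM in Huh7 SR. Both genes were without overlap higher in HepG2 SR, and both overlapped in Huh7. FADS2 was higher by 1.2 on the log2 scale in HepG2 SR (standard error 0.51, adjusted p = 0.956 from limma), with a 95% confidence interval that reached down to 0.0011. The call was lost without HepG2 WT replicate 1, where the change was 0.73, without either HepG2 SR library, and without either Huh7 WT library. FADS1 was higher by 0.94 (standard error 0.67) and was not called, though it was with each cell line fitted alone. Averaged over both cell lines, FADS2 was higher by 0.88 on the log2 scale (standard error 0.36, adjusted p = 0.998 from limma), with 2 of 4 SR libraries above every WT library. This call was lost without HepG2 WT replicate 1, either library of HepG2 SR, replicate 1 of Huh7 WT or replicate 2 of Huh7 SR, where the change lay between 0.64 and 0.98. The genes overlap on opposite strands, FADS2 also overlaps FEN1 on its own strand, and no source says that strand was used in counting, so reads could have been shared.

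The ratio of FADS1 to FADS2 lay between 0.81 and 1.22 in the 4 HepG2 libraries and between 1.34 and 10.6 in the 4 Huh7 libraries. It was 9.4 and 10.6 in Huh7 WT and SR replicate 1, and 2.83 and 1.34 in Huh7 WT and SR replicate 2. Between the cell lines, averaged over WT and SR, FADS2 was the gene of the 10 called lower in Huh7 (2.87% of all genes were), by 1.47 on the log2 scale (95% confidence interval -2.32 to -0.62, adjusted p = 0.813 from limma), and 0 of 10 were called higher (2.04%). All 4 Huh7 libraries lay below 3 of the HepG2 libraries, and Huh7 SR replicate 2 lay above HepG2 WT replicate 1. This call held in each of the fits with a library left out. The ratio of SCD to FASN was also highest in the Huh7 libraries of replicate 1, at 6.37 and 5.02, and lay between 1.44 and 3.39 in the other 6.

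**Figure D3:**
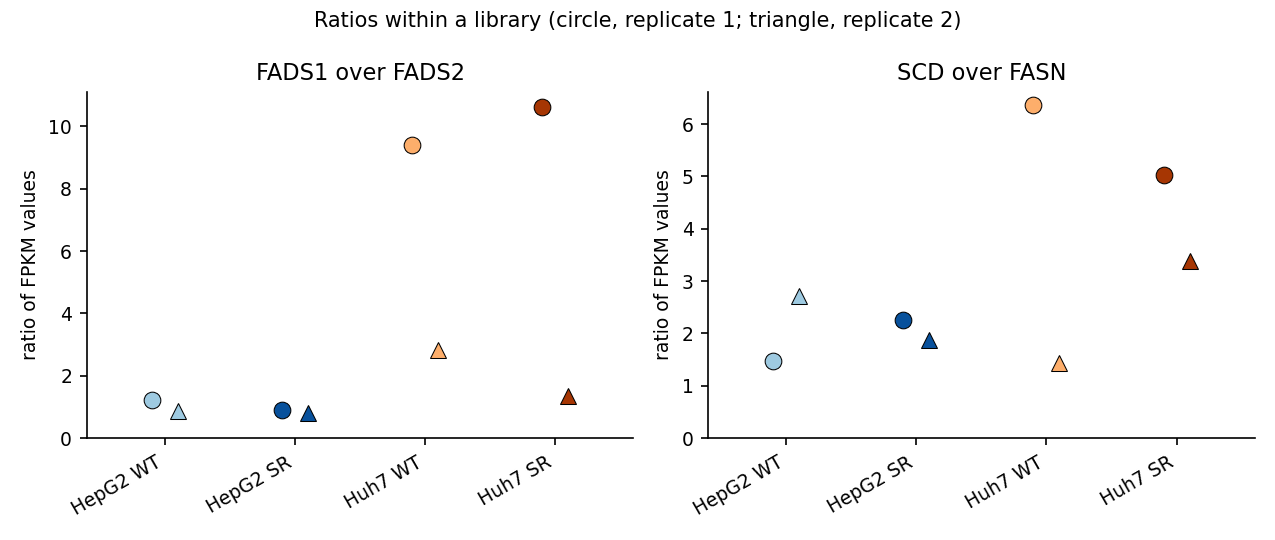
Ratio of FPKM values within each library (vertical axis, linear from 0) for FADS1 over FADS2 and SCD over FASN, with a circle for replicate 1 and a triangle for replicate 2 of each group. The Huh7 libraries of replicate 1 are the highest in both panels, at 9.4 and 10.6 and at 6.37 and 5.02.

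ACSL3 (ENSG00000123983, chromosome 2 from 222860934 to 222944639, plus strand) encodes an acyl-CoA synthetase of lipid droplets and the endoplasmic reticulum. It measured 29.8 and 48.7 FPKM in HepG2 WT against 49.1 and 91.3 FPKM in HepG2 SR, and at 37.5 and 48.6 FPKM in Huh7 WT and at 26.2 and 37.5 FPKM in Huh7 SR. The SR libraries were thus above WT in HepG2 and below WT in Huh7, by 0.80 (standard error 0.44) and -0.43 (standard error 0.44) on the log2 scale. In each cell line an SR library all but met a WT library. The contrasts differed by -1.23 (95% confidence interval -2.73 to 0.26, adjusted p = 1.0 from limma), and 0 of the 10 genes were called for such a difference, higher (0.369% of all genes) or lower (0.237%).

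SREBF1 (ENSG00000072310, chromosome 17 from 17810399 to 17837002, minus strand) encodes SREBP-1, the transcription factor named above, and gene-level FPKM does not separate its isoforms. It measured 15.3 and 17.5 FPKM in HepG2 WT, 28.9 and 16.3 FPKM in HepG2 SR, 28.0 and 18.2 FPKM in Huh7 WT and 32.6 and 20.7 FPKM in Huh7 SR. The groups overlapped in both cell lines. The log2 fold change was 0.39 (standard error 0.43) in HepG2 and 0.20 (standard error 0.43) in Huh7.

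Since the libraries that stood apart fall unevenly among the groups, SR and WT were also compared between single libraries of one cell line whose r was over 0.9. There were 4 such pairs, 2 of which share HepG2 SR replicate 1, and HepG2 SR replicate 2 is in none. HepG2 SR replicate 1 was higher than HepG2 WT replicate 1 in 10 of 10 genes and than HepG2 WT replicate 2 in 9 of 10, where 49.0% and 48.6% of all genes were higher. Huh7 SR replicate 1 was higher than Huh7 WT replicate 1 in 7 of 10 genes (49.9% of all genes), and Huh7 SR replicate 2 than Huh7 WT replicate 2 in 5 of 10 (41.3% of all genes). SCD, FADS2, ACLY, ELOVL6 and SREBF1 were higher in SR in all 4 pairs. The share of all genes that were higher in all 4 pairs is not given, so this count has no background. The log2 differences of SCD were 1.94, 0.71, 0.45 and 0.98, and those of FADS2 were 1.48, 0.54, 0.49 and 0.62. ACLY, ELOVL6 and SREBF1 had smallest differences of 0.05, 0.03 and 0.18. Summed FPKM was larger in all 4 SR libraries, from 411763 to 429111, than in all 4 WT libraries, from 384792 to 403905. These pairs were not rescaled to a common sum, so the sign of differences as small as those of ACLY and ELOVL6 can depend on scaling. FASN and FADS1 were higher in 3 of 4, the exception being Huh7 replicate 2, with differences of -0.25 and -0.40. ACSL3 was higher in 2 of 4, by 0.01 at the smaller, and ELOVL5 in 1 of 4.

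**Figure D4:**
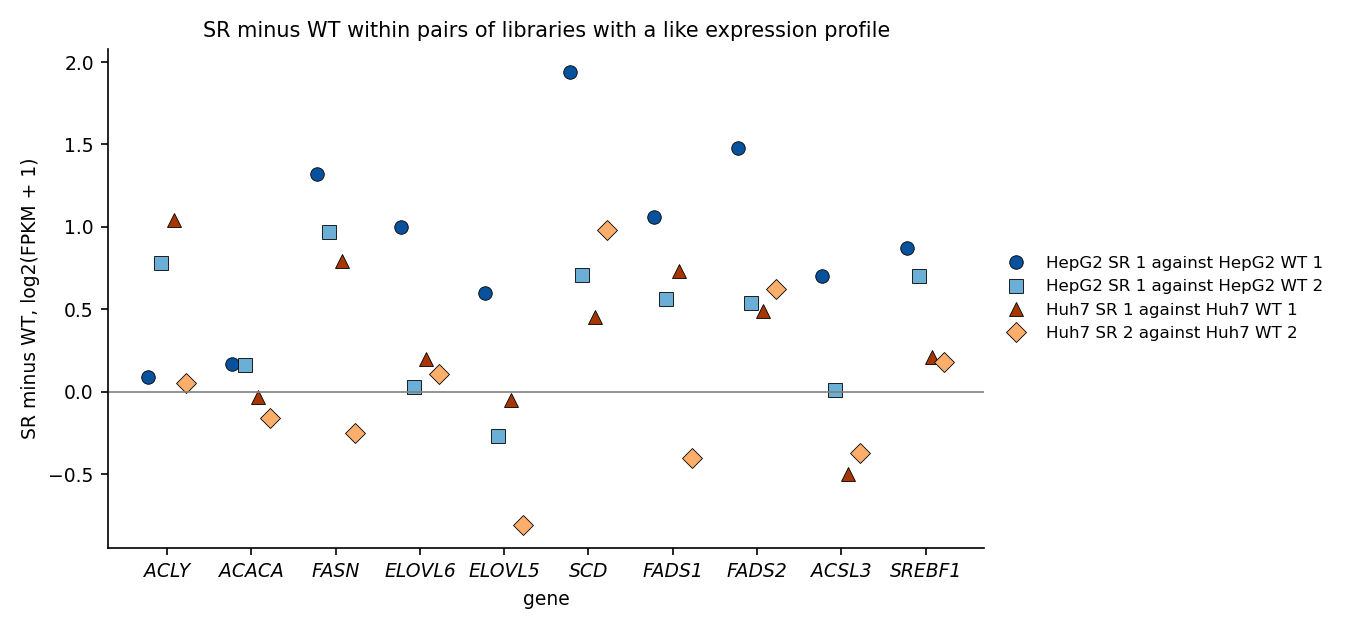
Difference of SR and WT in log2(FPKM + 1) (vertical axis) for each gene in 4 pairs of libraries of the same cell line and like expression profile. SCD and FADS2 lie above 0 in all 4 pairs, from 0.45 to 1.94 and from 0.49 to 1.48, and ELOVL5 lies above 0 in 1.

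A further limma fit, without HepG2 SR replicate 2, had expression profile and a common SR effect as its terms. It had no term for cell line, and a profile can hold both cell lines, so differences between them can enter the SR effect. In this fit, 7 of the 10 genes were positive over 7 libraries. Their median was 0.43, against -0.04 over all genes. SCD was called higher in this fit, where 3.76% of all genes were, with a log2 fold change of 0.91 (95% confidence interval 0.12 to 1.71, adjusted p = 0.508). FADS2 had 0.63 (95% confidence interval -0.25 to 1.51), FASN 0.57 (-0.12 to 1.26) and SREBF1 0.42 (-0.04 to 0.88), and 0 of 10 were called lower (4.41% of all genes). Profiles were set from the data and are not conditions. Taking the labels alone, 0 of the 10 genes had all 4 SR libraries above all 4 WT libraries (1.52% of all genes) or all 4 below (2.17%).

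The neighbouring pathways were described with lists chosen by hand. Of 21 genes of a sterol list, which SREBP-2 and SREBP-1 also drive, 20 had a positive log2 fold change in HepG2 SR, with a median of 0.39, and 17 in Huh7 SR, with a median of 0.28. EBP and HMGCS1 were called higher in HepG2 SR and 0 lower, and in Huh7 SR ACAT2 was called higher. EBP, a sterol isomerase, measured 26.3 and 40.8 FPKM in HepG2 WT against 85.4 and 146 FPKM in HepG2 SR, with a log2 fold change of 1.74 (standard error 0.56). ACAT2, which joins acetyl-CoA units for sterols, measured 34.0 and 20.2 FPKM in Huh7 WT against 88.0 and 48.1 FPKM in Huh7 SR, with a log2 fold change of 1.28 (standard error 0.49). Over both cell lines, EBP, ACAT2 and HMGCS1 were called higher, with log2 fold changes of 1.42, 1.18 and 0.67, and 0 lower. All adjusted p were at least 0.956 with limma. Without HepG2 SR replicate 2, 20 of 21 were still positive in HepG2, with a median of 0.75, but EBP (1.35) and HMGCS1 (0.83) were not called. Without Huh7 SR replicate 1, 7 of 21 were positive in Huh7, with a median of -0.15, and ACAT2 (0.85) was not called. With profile as a term, 6 of the 21 were called higher over both cell lines (3.76% of all genes) and 0 lower (4.41%). EBP (1.13) and ACAT2 (1.26) were among the 6 and HMGCS1 (0.46) was not.

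Of 25 further enzymes of synthesis and elongation, 22 were tested, with medians of 0.08 in HepG2 and 0.04 in Huh7. SLC25A1, which carries citrate out of mitochondria for ATP citrate lyase, was called higher in Huh7 SR, at 69.1 and 71.6 FPKM against 28.4 and 26.7 FPKM in Huh7 WT, a log2 fold change of 1.32 (standard error 0.40). In HepG2 it measured 92.7 and 57.4 FPKM in WT against 105 and 58.2 FPKM in SR, and it was called over both cell lines with 0.71. Its Huh7 call held without either library of replicate 1, and the call over both was lost with profile as a term, at 0.87. With profile as a term, 1 of the 22 enzymes was called higher over both cell lines and 1 lower. The Huh7 median of these enzymes was -0.21 without Huh7 SR replicate 1. None of the 17 regulators of SREBP was called in either cell line or over both, with medians of -0.20 in HepG2 and -0.09 in Huh7. Without HepG2 SR replicate 2 their HepG2 median was 0.19, and without Huh7 SR replicate 1 their Huh7 median was 0.01 and 1 was called higher, as 1 was with profile as a term. Among them SREBF2 stood between 27.5 and 51.7 FPKM, and INSIG1, which retains SREBP in the endoplasmic reticulum, stood at 8.39, 8.12 and 23.3 FPKM in replicate 2 of HepG2 SR and replicate 1 of Huh7 WT and Huh7 SR, respectively, and at most at 0.029 FPKM in the other 5 libraries.

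Of 17 acyl-CoA synthetases and acyltransferases, 0 were called within a cell line, and DGAT1, an enzyme of triglyceride synthesis, was called higher over both, with a log2 fold change of 0.92 (standard error 0.33). DGAT1 had 0.86 without HepG2 SR replicate 2 and lost its call. With profile as a term DGAT1 was not called (0.73), while 2 of the 17 genes were called higher and 1 lower. The medians of these genes were -0.39 in HepG2 and 0.33 in Huh7, and became 0.14 without HepG2 SR replicate 2, -0.04 without replicate 1 of Huh7 WT, and 0.74 without that of Huh7 SR. Of 20 genes of fatty acid oxidation, 18 were tested and 0 were called within a cell line, with medians of -0.03 (0.08 without HepG2 SR replicate 2) and 0.29, while HADH and ECHS1 of the oxidation spiral were called higher over both, at 0.87 and 0.70. With profile as a term HADH was called (0.92) and ECHS1 was not (0.46), as also without HepG2 SR replicate 2 (0.95 and 0.52). Of 15 hepatocyte genes, all 15 had a positive log2 fold change in Huh7 SR, with a median of 1.78, and TF and HNF4A were called higher. Without Huh7 WT replicate 1 that median was 1.22, with 12 of 15 positive, and neither TF (1.85) nor HNF4A (1.22) was called. Without Huh7 SR replicate 1 the median was 2.96, with 13 of 15 positive, and TF (3.25) was called while HNF4A (0.88) was not. In HepG2 SR 10 of 15 were positive, with a median of 0.19, and 0 were called. Of the 12 markers of other cell types 4 were tested and 0 called. The part of these differences in the results above was not tested.

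By Pearson's r of log2(FPKM + 1) over the 8 libraries, given as a description, the genes outside the 10 most like FASN were RPS10-NUDT3 (0.952), SNORA5C (0.947), ENSG00000293495 (0.944), OGDH (0.934) and ERP29 (0.926). Within the 10, r with FASN was 0.72 for ELOVL6, 0.71 for FADS1, 0.65 for SCD, 0.60 for ACLY and 0.59 for ACACA, and 0.13 for ELOVL5. These libraries form the sets described above and share their scaling, and many genes were compared.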

How the data were processed

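RNA of 8 libraries was sequenced as polyadenylated mRNA after NEBNext library preparation. The files deposited by the authors give FPKM for each gene in each library separately. The submitters' processing notes name fastp 0.20.0 and the genome build GRCh38. The aligner, counter and annotation are not given in the sources used here. Depth is unknown, since the steps of low values fell on whole reads (tolerance 0.02) for 3.96% to 9.16% of them, where chance gives 4.0%.

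The authors used edgeR, which needs counts. The deposited FPKM were tested here as log2(FPKM + 1) with limma 3.58.1 (R 4.3.3, eBayes with trend), in 1 model of 4 group means with 4 residual degrees of freedom, on 15173 genes. Symbols were paired with 99.1% of identifiers, and positions came from GENCODE release 29. The 10 genes and the 8 lists were chosen with earlier results of these data known. From each list at most the 3 called genes of largest change per comparison were named, together with the profile markers, SREBF2 and INSIG1, the last 2 after their values were seen, and the 5 genes most like FASN. A call of 1 gene of the sterol list in Huh7 is not reported here. The scripts were tested on simulated data. Alternatives were the pseudocount, the filter, scaling, separate fits, no trend, a replicate block, thresholds, each library left out, and profile as a term without cell line. Fits of replicate 1 or 2 alone, and the lists without libraries that stood apart, were added after the data were seen. Figures used matplotlib 3.10.9 in Python 3.11.15.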

Additional observations from a re-analysis of the deposited data

Results flagged for a closer look

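ACSL3 had both SR libraries above both WT libraries in HepG2 and both below in Huh7, opposite directions in the cell lines. The nearest libraries were 49.07 FPKM in SR and 48.68 FPKM in WT in HepG2, and 37.46 FPKM in SR and 37.47 FPKM in WT in Huh7. The difference of the contrasts was -1.23 on the log2 scale (95% confidence interval -2.73 to 0.26 from limma), which did not pass the threshold. It ran from -1.67 to -0.79 with a library left out, and was called without HepG2 SR replicate 1.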

How the results depend on the processing

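Of 800 values of the 10 genes under the alternatives, 711 kept their direction and side of the threshold, 23 lost a call, 23 gained one and 43 changed sign. Depth is unknown, and 2 libraries a group limit the precision. Over Huh7, 0 of 10 genes were called under every alternative. In HepG2, where 2 were called, 1 was with a pseudocount of 0.1, without a filter, with quantile normalization and without the trend, 0 after rescaling to a common sum, and 3 with each cell line fitted alone, where FADS1 joined FASN and FADS2. Over both cell lines, where 1 was called, 0 were after rescaling or with a log2 cutoff of 1, 4 in the libraries of replicate 1 alone and 0 in those of replicate 2 alone, both fits chosen after seeing the data, and SCD replaced FADS2 with profile as a term. With an adjusted p under 0.05, 0 were called in HepG2, over both cell lines or between the cell lines. With a library left out, the count ran from 0 (without HepG2 WT replicate 1 or HepG2 SR replicate 2) to 2 in HepG2, and from 0 to 2 over both cell lines and for the difference, and from 1 to 2 between the cell lines. The causes were not tested.

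The labels do not say that replicate numbers pair the libraries, and deviations of same-numbered libraries correlated at 0.12 in HepG2, 0.80 in Huh7 and between -0.56 and -0.04 across the cell lines. With a replicate block, 5 genes were called in HepG2 (FASN, ELOVL6, FADS1, FADS2 and ACSL3), 4 over both cell lines (FASN, ELOVL6, SCD and FADS2), 1 for the difference (ACSL3) and 1 between the cell lines. Over all genes the block called 1392 in HepG2 in place of 325, 669 in Huh7 in place of 283, 1509 over both in place of 596, 535 for the difference in place of 92 and 2488 between the cell lines in place of 744.

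Signs changed for ELOVL5 in HepG2 (-0.02 after rescaling and -0.02 with quantile normalization), ACACA over both cell lines (-0.04 after rescaling and -0.04 with profile as a term), ACSL3 over both (-0.11 with profile as a term), ELOVL5 over both (0.27 in replicate 1 alone) and ELOVL6 between the cell lines (-0.0 with quantile normalization). With a library left out, the log2 fold change ran in HepG2 from -0.35 to 0.52 for ELOVL5, from -0.0 to 0.79 for SREBF1. It ran in Huh7 from -0.52 to 0.33 for ACACA, from -0.29 to 0.82 for FASN, from -0.09 to 0.4 for ELOVL6, from -0.39 to 1.82 for SCD, from -0.83 to 1.16 for FADS1, from -0.12 to 0.51 for SREBF1. It ran over both cell lines from -0.17 to 0.26 for ACACA, from -0.39 to 0.04 for ELOVL5, from -0.04 to 0.4 for ACSL3. It ran for the difference of the SR effect from -0.22 to 0.48 for ACLY, from -0.72 to 0.14 for ACACA, from -1.54 to 0.67 for SCD, from -1.77 to 0.23 for FADS1, from -0.59 to 0.2 for SREBF1. It ran between the cell lines from -0.24 to 0.19 for ACACA, from -0.43 to 0.12 for FASN, from -0.3 to 0.34 for ELOVL6. Calls over all genes also moved by over 1.5 times: in HepG2 325 became 57 (without HepG2 SR replicate 2) to 1749 (without HepG2 SR replicate 1) with a library left out and 504 with a filter at FPKM 0.1, in Huh7 283 became 154 to 818 with a library left out and 124 with each cell line fitted alone, over both cell lines 596 became 193 to 1277 with a library left out and 1239 with the expression profile as a term and 1648 in replicate 1 alone, for the difference of the SR effect 92 became 24 to 945 with a library left out and 254 with a filter at FPKM 0.1 and 168 with no filter, between the cell lines 744 became 236 to 1735 with a library left out.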
